A study of Mus musculus with 15 samples.

Results

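The genes described are 9 that encode the MHC class II antigen presentation machinery of the mouse: H2-Aa, H2-Ab1, H2-Eb1, Cd74, Ciita, H2-DMa, H2-DMb1, H2-Oa and H2-Ob. They were taken by the symbol of their Entrez gene ID from the gene count table of an RNA-seq study of T cell acute lymphoblastic leukemia (T-ALL), in which they are 9 of 39827 genes read. Each of the 9 had counts in all 15 libraries, and each passed the filter on low counts. The study asked what loss or inhibition of Bcat1, the cytosolic branched-chain amino acid transaminase, does to the transcriptome of leukemias driven by ΔE-NOTCH1, a truncated NOTCH1 that is active without ligand.

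The leukemias arose from bone marrow progenitors (Lineage-, cKit+ and Sca1+) that were transduced with ΔE-NOTCH1 and put into lethally irradiated C57BL/6J mice. The spleen samples may hold non-leukemic cells, of which the labels say nothing. There were 5 groups with 3 libraries each, all from spleen. KO3 and KO7 were Bcat1 knock-out leukemias labelled as given PBS. WT6 was a Bcat1 wild-type leukemia, also labelled PBS. WT0 ERG-245 was the wild-type leukemia WT0 from mice given the BCAT1 inhibitor ERG-245 by intraperitoneal injection in 3 doses of 30 mg per kg at intervals of 8 h, and WT0 PBS was its vehicle control. The header names of the 3 WT0 PBS libraries contain DMSO, whereas their labels say PBS. The labels state no ages, no sort of leukemic cells, and not whether the 3 libraries of a group came from separate mice. The p-values below therefore rest on differences among libraries that carry the same label, and those may be technical only.

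Total counts were 17441292 to 28902573 per library. Bcat1 averaged 6.95 CPM in KO3 and 2.09 CPM in KO7, against 35.2 CPM in WT6, and 13.3 CPM in WT0 ERG-245, against 17.8 CPM in WT0 PBS (CPM is a gene's count scaled to the same total in every library). The T cell label was met by all 13 T cell markers looked up, Cd3e and Lck among them, which summed to group means of 3678 to 6158 CPM. Each group had a T cell receptor beta V segment of its own in the lead: Trbv15 in KO3, Trbv5 in KO7, Trbv19 in WT6, Trbv16 in WT0 ERG-245 and Trbv17 in WT0 PBS. The ERG-245 and PBS libraries of WT0 thus differed in their leading V segment as well as in treatment, and these cannot be told apart.

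MHC class II molecules are surface heterodimers of an alpha and a beta chain that show peptides from endosomes to CD4 T cells. They are made chiefly by B cells, dendritic cells and macrophages, and mouse T cells are known to make little or none. The chains assemble with the invariant chain CD74, whose remnant in the groove is exchanged for a peptide by H2-DM, a process that H2-O restrains. Transcription of the classical chains, the invariant chain and H2-DM depends on CIITA, a co-activator that does not bind DNA itself but docks on factors sitting on the X and Y boxes of class II promoters.

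The bases upstream of 5 members and of H2-DMb2, the near-identical neighbour of H2-DMb1, lie within the class II region of chromosome 17. These members differed in group pattern, but H2-Aa and H2-Eb1 were nearly alike, at a root mean square difference of 0.081 log2 units. Of the 9 members, 6 matched an entry of the RefSeq promoter table used (GRCm38.p6). Each line gives the 150 bases before a RefSeq transcript start, 5′ to 3′ on the gene's own strand, with capitals for the letters ACNGATG (an X box core) and ATTGG (a Y box core, CCAAT on the other strand).
H2-Eb1: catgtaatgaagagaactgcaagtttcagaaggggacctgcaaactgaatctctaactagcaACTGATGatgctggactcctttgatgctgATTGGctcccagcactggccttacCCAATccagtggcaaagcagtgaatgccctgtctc
H2-DMb1: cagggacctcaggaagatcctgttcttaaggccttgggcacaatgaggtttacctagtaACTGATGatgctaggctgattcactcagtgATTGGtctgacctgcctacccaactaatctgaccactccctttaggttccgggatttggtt
H2-DMb2: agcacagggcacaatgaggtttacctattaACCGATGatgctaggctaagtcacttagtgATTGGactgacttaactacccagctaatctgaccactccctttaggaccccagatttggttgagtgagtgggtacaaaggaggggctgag
H2-Oa: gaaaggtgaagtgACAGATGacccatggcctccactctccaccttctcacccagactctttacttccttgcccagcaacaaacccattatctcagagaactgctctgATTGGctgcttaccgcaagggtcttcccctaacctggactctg
H2-Aa: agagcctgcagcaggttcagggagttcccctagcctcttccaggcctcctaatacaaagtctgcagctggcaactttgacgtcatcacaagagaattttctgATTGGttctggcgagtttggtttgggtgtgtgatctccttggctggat
H2-Ob: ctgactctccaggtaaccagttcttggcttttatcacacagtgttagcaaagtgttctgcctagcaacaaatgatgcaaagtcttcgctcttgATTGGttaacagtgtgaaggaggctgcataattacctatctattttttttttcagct

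The windows lie at chr17:34305717-34305866 (plus strand) for H2-Eb1, chr17:34153041-34153190 (plus) for H2-DMb1, chr17:34145099-34145248 (plus) for H2-DMb2, chr17:34092229-34092378 (plus) for H2-Oa, chr17:34287824-34287973 (minus) for H2-Aa and chr17:34238755-34238904 (plus) for H2-Ob. H2-Eb1 held both sets of letters with 22 bases between them, and H2-DMb1 and H2-DMb2 held them with 23 bases between them. With AG also required as the 4th and 3rd base before the X letters, a longer form tried first, H2-Eb1, H2-DMb1 and H2-Oa still matched, while H2-DMb2 and H2-Aa did not. In H2-Oa the X letters ended 131 bases before the start, and 87 bases parted them from the Y letters. H2-Ob held the Y letters alone, and H2-Aa held the X letters only farther upstream, on the other strand and outside the bases shown. Of the H2-DMa windows, 1 held the Y letters and none the X letters. These windows, chr17:34122582-34122881 and chr17:34125268-34125567, lie inside the counted span of the gene, chr17:34119693-34139101. Whether its coding transcript starts at either was not checked. Counted on both strands in 32851 mouse promoter windows of 300 bases, the X letters occurred in 9.85%, the Y letters in 37.4%, and both within 30 bases of each other in 0.874%. The longer X form occurred in 0.968%. These matches describe the letters, and no match says only that the letters spelled here are not in the window.

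Counted per kilobase of merged exon and scaled by library total (FPKM), the scale on which different genes can be set side by side, Cd74 was the most abundant member in each group. It averaged 192 FPKM in KO3, 170.5 in KO7, 425 in WT6, 95.3 in WT0 ERG-245 and 152 in WT0 PBS. H2-Aa and H2-Ab1, the alpha and beta chains of the I-A molecule, came next in every group at 35.0 to 225 FPKM. H2-Eb1, the beta chain of I-E, averaged 20.8 to 120.4 FPKM, and Ciita was the least abundant on this scale at 0.410 to 2.93 FPKM. Per kilobase of the longest coding transcript, H2-Ob was lowest in KO7, at 1.196 against 1.206 for Ciita. H2-DMa stood at only 2.67 to 4.97 FPKM, but its merged exons span 8325 bases against 2005 in its longest coding transcript, and per kilobase of that transcript it ranked sixth in all groups. H2-Ea, the I-E alpha chain gene that the annotation calls a transcribed pseudogene, had 3 counts in all, in WT0 ERG-245 replicates 1 and 2, and 0 counts in the other 13 libraries. A count of 0 over the 3 libraries of a group allows up to 0.0384 to 0.0545 CPM.

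**Figure D1:**
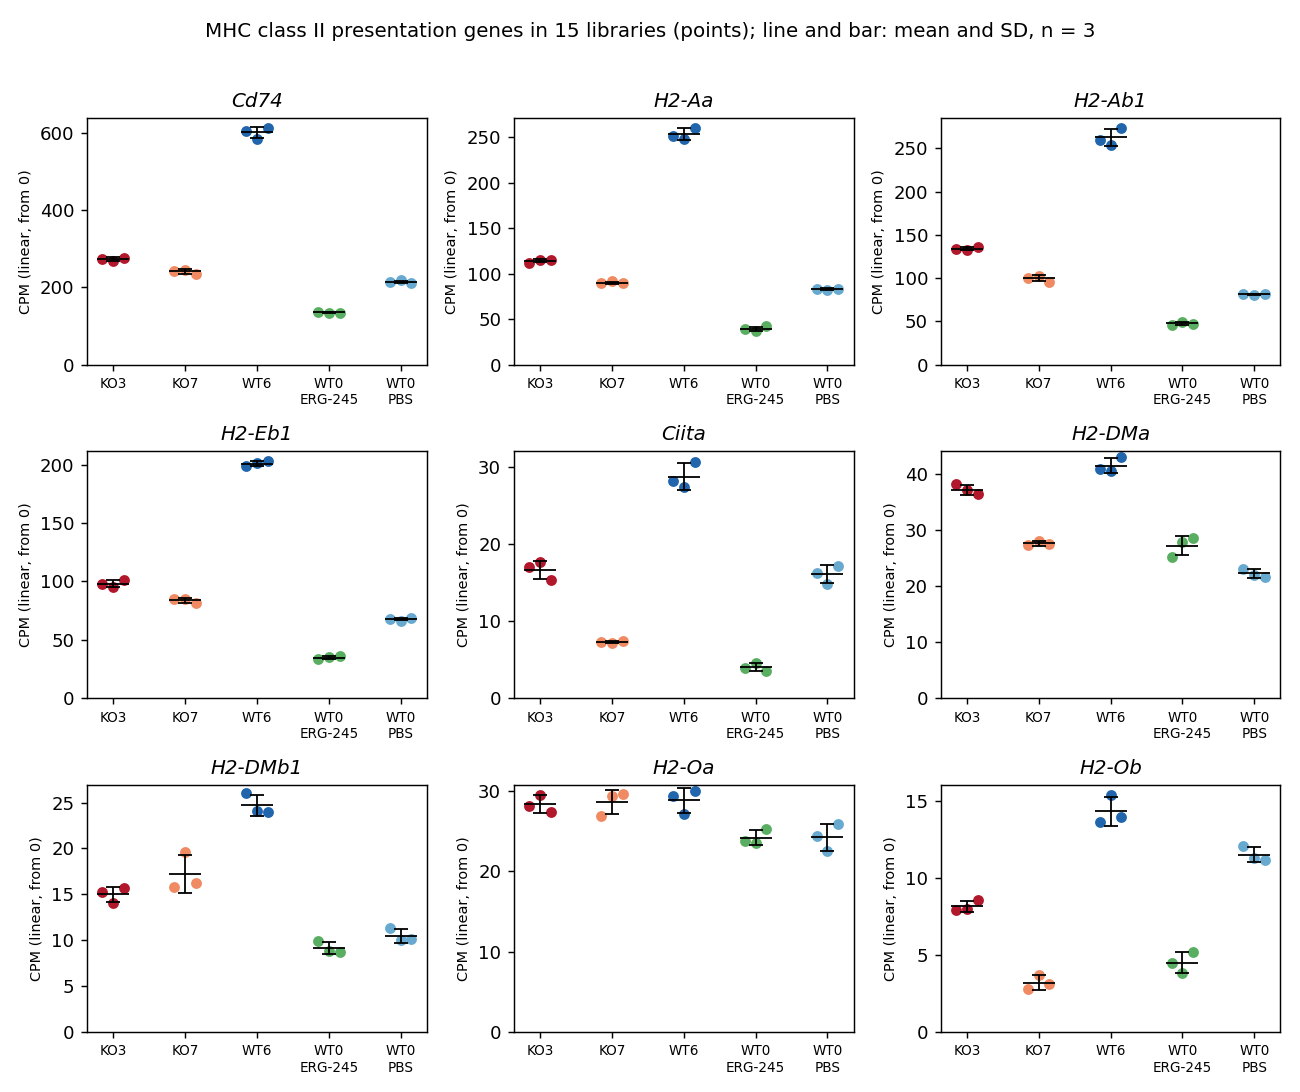
Level in CPM (linear axes from 0) of each of the 9 genes in 15 libraries; points are libraries, lines and bars are group means and SD (n = 3), from KO3 at the left to WT0 PBS at the right. WT6 has the highest mean in all 9 panels and WT0 ERG-245 the lowest in 7, while H2-Oa stays between 22.5 and 30.0 CPM in all libraries.

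The 4 abundant genes, Cd74 and the 3 classical chains, were highest in WT6 and lowest in WT0 ERG-245, with the same order of groups in between: KO3, KO7, then WT0 PBS. For these 4 genes no library of a group overlapped with those of the next group in the order. H2-Aa (GRCm38 chr17:34282744-34287823, minus strand) had 112, 115 and 114 CPM in KO3 and 89.7, 91.4 and 89.5 CPM in KO7, against 252, 248 and 260.3 CPM in WT6. Both knock-outs were below WT6 in every library. It had 39.0, 37.5 and 42.0 CPM in WT0 ERG-245, against 83.3, 81.7 and 83.6 CPM in WT0 PBS, and these groups did not overlap either. H2-Ab1 (chr17:34263227-34269418) had 134, 133 and 136 CPM in KO3 and 100.4, 103 and 95.8 CPM in KO7, against 260, 254 and 274 CPM in WT6. With ERG-245 it had 46.2, 49.5 and 47.1 CPM, against 81.1, 80.4 and 82.1 CPM with PBS.

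H2-Eb1 (chr17:34305867-34316674) had 98.0, 95.4 and 101 CPM in KO3 and 84.7, 85.4 and 81.7 CPM in KO7, against 199, 201 and 203 CPM in WT6. It had 33.2, 35.0 and 35.7 CPM with ERG-245, against 67.9, 66.5 and 68.3 CPM with PBS. Cd74 (chr18:60803849-60812652), the invariant chain, repeated this order on a higher level. It had 273, 267 and 277 CPM in KO3 and 243, 246 and 235 CPM in KO7, against 605, 585 and 612 CPM in WT6. With ERG-245 it had 137, 134 and 133 CPM, against 215, 218 and 212 CPM with PBS.

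Ciita (chr16:10480014-10531064), the co-activator, stood in another order, because KO7 lay far below KO3 and WT0 PBS. It had 17.0, 17.6 and 15.4 CPM in KO3 and 7.24, 7.10 and 7.39 CPM in KO7, against 28.2, 27.3 and 30.6 CPM in WT6. It had 3.97, 4.53 and 3.55 CPM in WT0 ERG-245, against 16.2, 14.8 and 17.1 CPM in WT0 PBS. KO3 and WT0 PBS overlapped, and no other neighbours in its order did. Ciita was at 6.13 ± 0.533% of Cd74's CPM in KO3, 3.00 ± 0.130% in KO7, 4.78 ± 0.197% in WT6, 2.98 ± 0.371% in WT0 ERG-245 and 7.47 ± 0.630% in WT0 PBS (SD, n = 3).

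The peptide exchanger H2-DM is a pair of H2-DMa and a beta chain, for which the mouse has the neighbouring genes H2-DMb1 and H2-DMb2. H2-DMa (chr17:34119693-34139101) had 38.1, 37.0 and 36.3 CPM in KO3 and 27.2, 27.9 and 27.5 CPM in KO7, against 40.8, 40.4 and 42.9 CPM in WT6. It had 25.2, 27.7 and 28.5 CPM with ERG-245, against 23.1, 22.0 and 21.6 CPM with PBS, which made it the only member whose ERG-245 libraries all lay above the PBS ones. Its counted exons hold 8325 bases, against 2005 in its longest coding transcript, and the gene overlaps Brd2 on the other strand. Its counts may therefore include fragments from outside the coding transcript, and this was not tested. H2-DMb1 (chr17:34153191-34160229) had 15.2, 14.1 and 15.7 CPM in KO3 and 15.8, 19.6 and 16.3 CPM in KO7, against 26.0, 24.1 and 23.9 CPM in WT6. With ERG-245 it had 9.85, 8.81 and 8.67 CPM, against 11.4, 10.0 and 10.1 CPM with PBS. The highest ERG-245 library and the lowest PBS library nearly met, as did the highest KO3 and the lowest KO7 library.

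H2-DMb2 (chr17:34143229-34151553) did not keep a fixed ratio to H2-DMb1. It had 16.8, 17.1 and 15.8 CPM in KO3 and 6.49, 7.04 and 4.94 CPM in KO7, against 27.9, 23.8 and 30.5 CPM in WT6. It had 5.77, 6.25 and 5.83 CPM with ERG-245, against 14.8, 14.8 and 14.3 CPM with PBS. The ratio of its counts to those of H2-DMb1 was 1.11 ± 0.102 in KO3, 0.358 ± 0.0527 in KO7, 1.11 ± 0.149 in WT6, 0.656 ± 0.0636 in WT0 ERG-245 and 1.40 ± 0.0910 in WT0 PBS (SD, n = 3). The KO7 libraries lay at 0.304 to 0.410, below those of all other groups. The longest transcripts of these neighbours align with 94.6% identity and share a run of 221 identical bases, so fragments from shared stretches may have been placed on either gene or dropped, and the split between them is uncertain.

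The restrainer H2-O is a pair of H2-Oa and H2-Ob, and the levels of its 2 genes parted. H2-Oa (chr17:34092379-34095234) had 28.1, 29.6 and 27.4 CPM in KO3, 26.9, 29.4 and 29.7 CPM in KO7 and 29.4, 27.1 and 30.0 CPM in WT6. It had 23.7, 23.6 and 25.2 CPM in WT0 ERG-245 and 24.4, 22.5 and 25.9 CPM in WT0 PBS. KO3, KO7 and WT6 overlapped with each other, and so did both WT0 groups. The group means of H2-Oa spanned 0.25 on the log2 scale, the narrowest span of the 9 members, against 2.68 for H2-Aa and 2.81 for Ciita.

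H2-Ob (chr17:34238905-34245908) had 7.89, 7.99 and 8.58 CPM in KO3 and 2.77, 3.69 and 3.13 CPM in KO7, against 13.6, 15.4 and 14.0 CPM in WT6. It had 4.50, 3.80 and 5.17 CPM in WT0 ERG-245, against 12.1, 11.3 and 11.2 CPM in WT0 PBS. It was the only member lowest in KO7, from 55 to 65 counts per library there. H2-Ob stood at 28.8 ± 2.25% of the CPM of H2-Oa in KO3, 11.1 ± 1.26% in KO7, 49.9 ± 6.04% in WT6, 18.5 ± 2.20% in WT0 ERG-245 and 47.7 ± 3.77% in WT0 PBS (SD, n = 3).

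**Figure D2:**
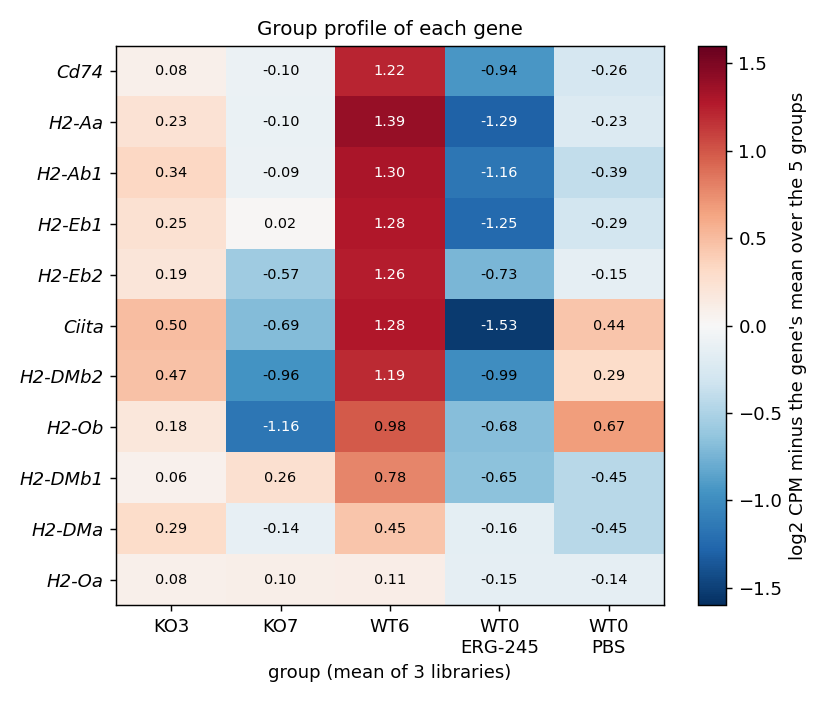
Group profile of the 9 genes and of H2-Eb2 and H2-DMb2: log2 CPM of each group mean minus the gene's mean over the 5 groups, with genes as rows and groups as columns (red above 0, blue below). The rows of Cd74, H2-Aa, H2-Ab1 and H2-Eb1 look alike, Ciita, H2-DMb2, H2-Ob and H2-Eb2 are blue in KO7, and H2-Oa is pale throughout, between -0.15 and 0.11.

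The profile of group means separated the members into sets. Cd74, H2-Aa, H2-Ab1 and H2-Eb1 differed from each other by a root mean square of 0.08 to 0.19 log2 units over the 5 groups, H2-Aa and H2-Eb1 being the closest pair at 0.081. Ciita differed from these 4 by 0.43 to 0.53, and H2-Ob by 0.65 to 0.74. Ciita and H2-Ob were 0.488 apart. H2-DMa lay nearest to H2-Oa, at 0.247, and H2-DMb1 nearest to Cd74, at 0.294. H2-Eb2, a second I-E beta gene, averaged 6.58 CPM in KO3, 3.94 in KO7, 13.9 in WT6, 3.44 in WT0 ERG-245 and 5.20 in WT0 PBS.

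For a ranking by likeness, the members, immunoglobulin genes, Jchain, antigen receptor segments, pseudogenes, gene models and genes with no symbol were left out. Among the 10350 other genes whose mean reached 5 CPM, the one whose group profile was most like the mean of the 4 abundant class II genes was Pdcd1, the inhibitory T cell receptor PD-1, at a root mean square difference of 0.0672 log2 units over the 5 group means. It was followed by Napsa, an aspartic peptidase (0.119), and Nrgn, a calmodulin-binding protein (0.170). Naip5, a sensor of bacterial flagellin, came next at 0.219, then the transcription factors Egr2 (0.230) and Nfil3 (0.234), Plekhf1 (0.235) and Kmo, kynurenine monooxygenase (0.237). Cd74 itself lay 0.126 from that mean, farther than Pdcd1 and Napsa.

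The ERG-245 and PBS libraries of the wild-type leukemia WT0 differed in their leading V segment as well as in treatment. In the comparison of ERG-245 with PBS, 7 of the 9 members were lower, H2-DMa was higher, and H2-Oa did not pass. All tests were edgeR quasi-likelihood tests with Benjamini-Hochberg adjustment over all 15948 genes, with calls at an adjusted p under 0.05. The background was broad: 65.8% of all genes tested passed, 33% as higher and 32.8% as lower. At least 2-fold lower were 3 members, Ciita, H2-Ob and H2-Aa, against 6.05% of all genes. Ciita fell by 1.99 on the log2 scale (SE 0.10, edgeR adjusted p = 7.91e-29), to 4.02 ± 0.495 CPM with ERG-245, against 16.0 ± 1.15 CPM with PBS (SD, n = 3). H2-Ob fell by 1.36 (SE 0.11), H2-Aa by 1.07 (SE 0.040), H2-Eb1 by 0.96 (SE 0.042), H2-Ab1 by 0.77 (SE 0.040) and Cd74 by 0.67 (SE 0.028) on the log2 scale, with edgeR adjusted p of 2.09e-18 or smaller.

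H2-DMa rose by 0.29 on the log2 scale with ERG-245 (SE 0.060, edgeR adjusted p = 2.2e-05). H2-DMb1 fell by 0.21 (SE 0.095), but its edgeR adjusted p of 0.0495 lay at the threshold. It was 0.0562 with DESeq2's size factors, 0.251 without WT0 PBS replicate 1, 0.132 without WT0 ERG-245 replicate 2 and 0.16 without WT0 ERG-245 replicate 3. H2-Oa differed by 0.00 on the log2 scale, with a 95% interval of -0.12 to 0.13. Over the 9 members the median log2 fold change was -0.77, against -0.000534 over all genes. The libraries did not overlap for 8 of the 9 members, against 67.9% of all genes.

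**Figure D3:**
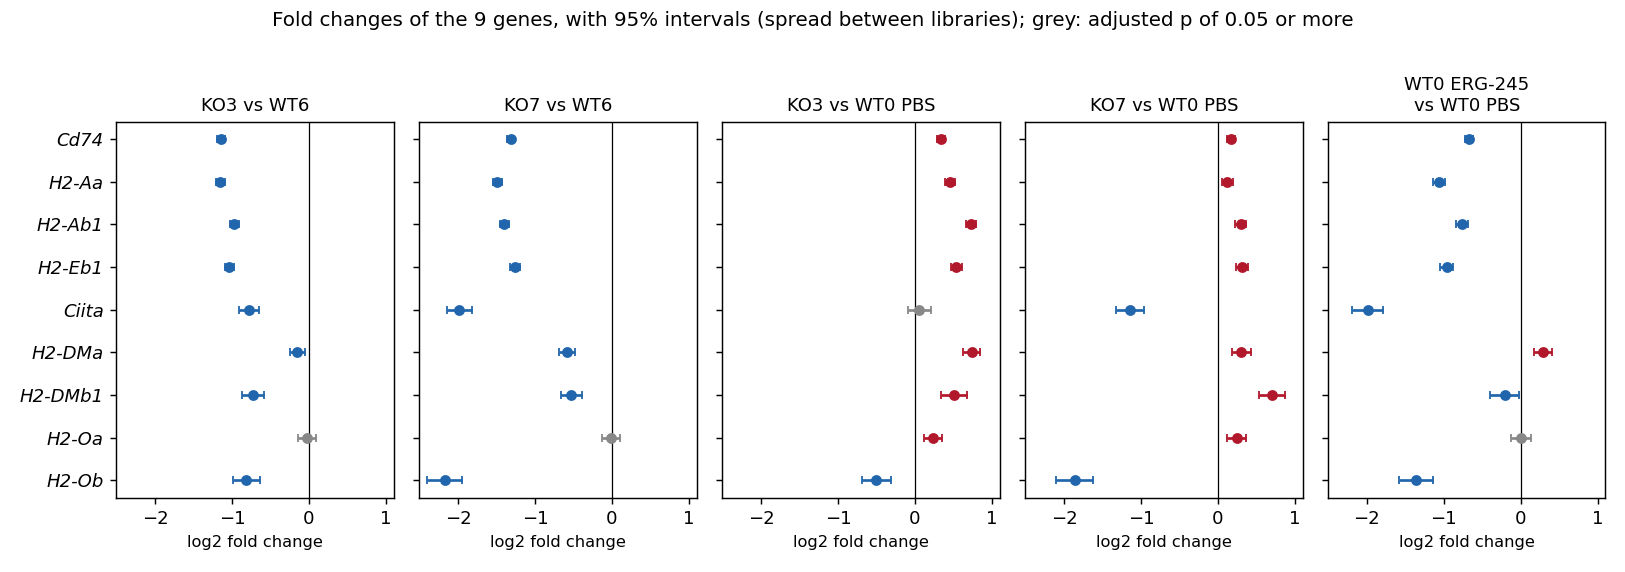
Log2 fold change (first group over second) of the 9 genes in 5 comparisons, with 95% intervals from the spread between libraries; blue is lower and red higher at an adjusted p under 0.05, and grey did not pass. Against WT6 both knock-outs have 8 genes below 0 that passed, and against WT0 PBS each knock-out has 7 genes above 0 that passed, while H2-Ob is below 0 in all 5 panels.

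Against WT6, both knock-outs had 8 members lower, none higher, and H2-Oa not passed. In KO7 against WT6, 68.9% of all genes passed, 32.2% as higher and 36.7% as lower, and 6 members, against 8.17% of all genes, were at least 2-fold lower. H2-Ob fell by 2.17 on the log2 scale in KO7 (SE 0.11, edgeR adjusted p = 5.72e-29) and Ciita by 1.98 (SE 0.081, edgeR adjusted p = 2.14e-35). H2-Aa fell by 1.49, H2-Ab1 by 1.40, Cd74 by 1.32 and H2-Eb1 by 1.26, each with an SE of 0.024 to 0.031. H2-DMa fell by 0.58 and H2-DMb1 by 0.53, whereas H2-Oa was at -0.01 with a 95% interval of -0.13 to 0.10.

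In KO3 against WT6, 59.7% of all genes passed, 27.7% as higher and 32% as lower, and 3 members, H2-Aa, Cd74 and H2-Eb1, were at least 2-fold lower, against 7.46% of all genes. H2-Aa fell by 1.15 on the log2 scale (SE 0.029, edgeR adjusted p = 2.61e-49), Cd74 by 1.14, H2-Eb1 by 1.03 and H2-Ab1 by 0.97. H2-Ob fell by 0.81, Ciita by 0.78, H2-DMb1 by 0.72 and H2-DMa by 0.15 (SE 0.049, edgeR adjusted p = 0.00467). H2-Oa was at -0.02, with a 95% interval of -0.14 to 0.09. The libraries did not overlap for 8 members in KO7 against WT6, beside 70% of all genes, nor for 8 in KO3 against WT6, beside 62.7% of all genes. Both comparisons share the WT6 libraries.

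Against WT0 PBS the direction of most members turned. In KO7, 7 members were higher and Ciita and H2-Ob lower, where 69.4% of all genes passed, 34.5% as higher and 34.9% as lower. In KO3, 7 members were higher, H2-Ob was lower and Ciita did not pass, where 66.6% of all genes passed, 34.1% as higher and 32.4% as lower. The rises were small in KO7: 0.12 on the log2 scale for H2-Aa (SE 0.035, edgeR adjusted p = 0.0014), 0.17 for Cd74, 0.30 for H2-Ab1, 0.31 for H2-Eb1 and H2-DMa, 0.24 for H2-Oa and 0.71 for H2-DMb1. In KO3 they were 0.23 for H2-Oa, 0.34 for Cd74, 0.46 for H2-Aa, 0.51 for H2-DMb1, 0.54 for H2-Eb1, 0.73 for H2-Ab1 and 0.74 for H2-DMa. Ciita fell by 1.14 in KO7 (SE 0.092, edgeR adjusted p = 9.46e-19) and differed by 0.06 in KO3, with a 95% interval of -0.09 to 0.21. H2-Ob fell by 1.86 in KO7 and by 0.50 in KO3 (SE 0.12 and 0.096). These 2 falls in KO7, of Ciita and H2-Ob, were at least 2-fold, against 7.56% of all genes. The libraries did not overlap for 9 members in KO7, beside 70.7% of all genes, and for 8 in KO3, beside 68.6%. Both comparisons share the WT0 PBS libraries.

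The wild-type leukemias differed between themselves. In WT6 against WT0 PBS all 9 members were higher, where 72.5% of all genes passed, 36.8% as higher and 35.6% as lower, and 5 members, against 9.15% of all genes, were at least 2-fold higher. H2-Ab1 rose by 1.69 on the log2 scale (SE 0.031, edgeR adjusted p = 2.97e-59), H2-Aa by 1.61, H2-Eb1 by 1.57, Cd74 by 1.48 and H2-DMb1 by 1.24. H2-DMa rose by 0.89, Ciita by 0.84, H2-Ob by 0.31 and H2-Oa by 0.26. No member overlapped, beside 74.1% of all genes without overlap. In KO3 against KO7, 7 members were higher, H2-DMb1 was lower and H2-Oa did not pass, where 70.7% of all genes passed, 36.1% as higher and 34.6% as lower. H2-Ob rose by 1.36 on the log2 scale in KO3 over KO7 and Ciita by 1.20, both at least 2-fold, against 7.29% of all genes, and Cd74 by 0.17 (SE 0.025, edgeR adjusted p = 5.78e-09). H2-DMb1 fell by 0.20 in KO3 relative to KO7 (edgeR adjusted p = 0.0221), and this call did not hold on total counts without composition scaling (edgeR adjusted p = 0.0818), without KO7 replicate 2 (0.326) or without KO3 replicate 2 (0.118). Libraries did not overlap for 8 members, beside 72% of all genes.

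With the leukemia as the replicate, KO3 and KO7 were set against WT6 and WT0 PBS on counts summed per leukemia, with 2 residual degrees of freedom. None of the 9 members passed. Of the 17226 genes tested, 0% passed in edgeR, 226 genes had an unadjusted p under 0.05, and DESeq2 called 43. H2-Ob differed by -1.17 on the log2 scale (SE 0.56, unadjusted p = 0.0884, edgeR adjusted p = 1), with a 95% interval of -2.60 to 0.25. Its 6 KO libraries, at 2.77 to 8.58 CPM, lay below the 6 libraries of WT6 and WT0 PBS, at 11.2 to 15.4 CPM. The WT0 ERG-245 libraries, not part of this fit, had 3.80 to 5.17 CPM, within the range of the KO libraries. H2-Ob was the only member without overlap, beside 6.3% of all genes, and 4 of the 15 B cell markers described below did not overlap either. Ciita differed by -0.88 (95% interval -2.24 to 0.48), H2-Aa by -0.70 (-2.08 to 0.67) and Cd74 by -0.65 (-1.93 to 0.63). H2-DMa differed by 0.04 (-0.91 to 1.00) and H2-Oa by 0.12 (-0.47 to 0.72). Without WT6 the fitted difference was on the other side of 0 for H2-Aa (0.32), H2-Ab1 (0.54), H2-Eb1 (0.44), Cd74 (0.27) and H2-DMb1 (0.62), and that of H2-DMa was so without KO3 (-0.20) or without WT0 PBS (-0.33).

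The spleen holds B cells, which express class II genes at high levels, and B cell markers moved with several of these results. In bulk RNA, fewer cells of a type and less RNA per cell cannot be told apart. Of 15 B cell markers, none was at 0 in any group, and 13 fell and 1 rose with ERG-245 relative to PBS. Against WT6, 13 fell and none rose in KO7, and 11 fell and 1 rose in KO3. Against WT0 PBS, 13 fell and none rose in KO7, 8 fell and 2 rose in KO3, and 4 fell and 8 rose in WT6. The shares of all genes higher and lower in these comparisons are those given above with the members. The median log2 fold change of the list was -1.54 with ERG-245 relative to PBS, -2.26 in KO7 relative to WT6 and -0.70 in KO3 relative to WT6.

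The summed level of all 15 markers was 250 to 255 CPM in KO3, 128 to 130.4 CPM in KO7, 352 to 361 CPM in WT6, 144 to 153 CPM in WT0 ERG-245 and 241 to 250.3 CPM in WT0 PBS. Ralgps2 and Pou2af1 made up 51.3% to 67.8% of it, and without them it averaged 87.5 CPM in KO3, 41.8 in KO7, 162 in WT6, 51.1 in WT0 ERG-245 and 120.4 in WT0 PBS. The sum was thus lowest in KO7 and WT0 ERG-245, the groups in which Ciita and H2-Ob were lowest.

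Set against the B cell marker sum, the summed CPM of Cd74, H2-Aa, H2-Ab1 and H2-Eb1 gave ratios of 2.45 ± 0.0287 in KO3, 3.97 ± 0.0614 in KO7, 3.70 ± 0.0781 in WT6, 1.74 ± 0.0452 in WT0 ERG-245 and 1.81 ± 0.0374 in WT0 PBS (SD, n = 3). The ratio was highest in KO7, where the marker sum was lowest, and the ERG-245 libraries, at 1.69 to 1.78, ended just below the PBS libraries, which began at 1.79. Over the 13 markers without Ralgps2 and Pou2af1, the ratio was 7.08 ± 0.321 in KO3, 12.3 ± 0.312 in KO7, 8.14 ± 0.152 in WT6, 5.03 ± 0.300 in WT0 ERG-245 and 3.71 ± 0.0845 in WT0 PBS. KO7 was again highest, but ERG-245 then lay above PBS, so the direction between those groups turned with the markers summed. Ciita stood at 6.60 ± 0.505% of the marker sum in KO3, 5.59 ± 0.154% in KO7, 8.06 ± 0.473% in WT6, 2.73 ± 0.387% in WT0 ERG-245 and 6.50 ± 0.581% in WT0 PBS. Over the 13 markers it stood at 19.0 ± 0.759% in KO3, 17.3 ± 0.630% in KO7, 17.7 ± 0.982% in WT6, 7.91 ± 1.36% in WT0 ERG-245 and 13.3 ± 1.25% in WT0 PBS. WT0 ERG-245 was lowest over both sums, whereas the order of KO3, KO7, WT6 and WT0 PBS changed. The part of B cells in the class II results was not tested.

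**Figure D4:**
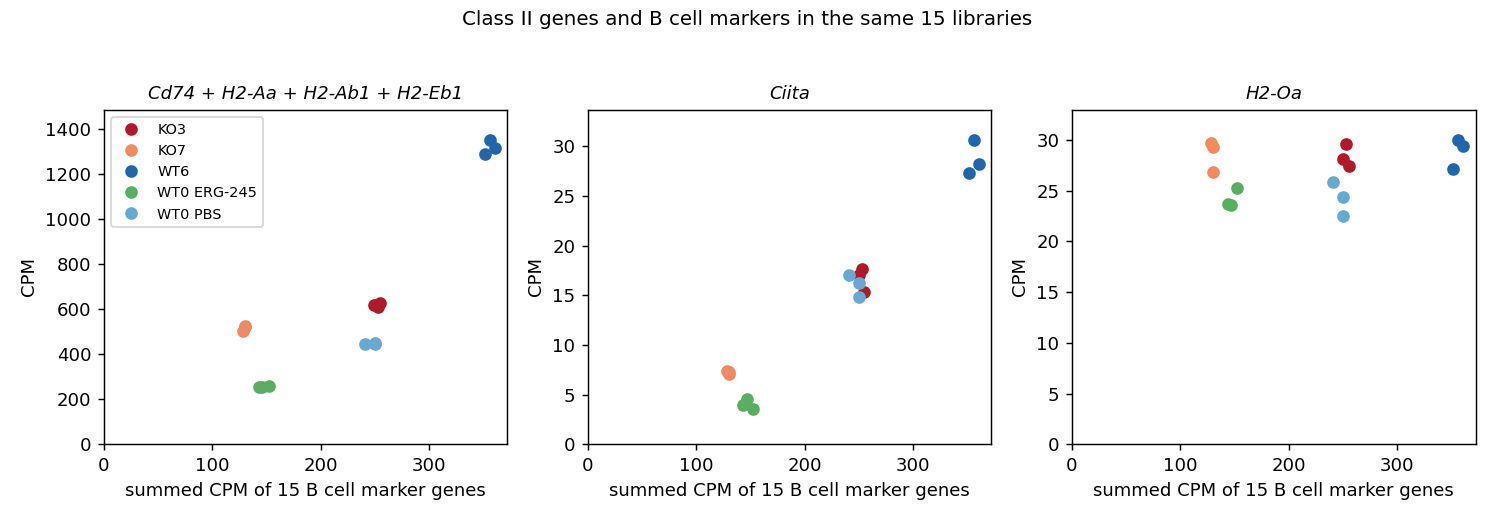
CPM of the 4 abundant class II genes summed (left), of Ciita (middle) and of H2-Oa (right) against the summed CPM of 15 B cell markers, 1 point per library, linear axes from 0. Ciita is low where the marker sum is low (KO7 and WT0 ERG-245), the summed class II genes in KO7 lie above those in WT0 PBS at a lower marker sum, and H2-Oa runs level.

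Other antigen presenting cells of the spleen had their own pattern. The 11 markers of conventional dendritic cells summed to 81.3 CPM in KO3, 71.8 in KO7, 109 in WT6, 65.4 in WT0 ERG-245 and 66.4 in WT0 PBS, and Cd209a was at 0 in KO7 and WT0 ERG-245. Of the 9 tested, 3 rose and 5 fell with ERG-245, beside 33% and 32.8% of all genes. Itgax, the integrin CD11c, averaged 21.3 ± 2.11 CPM in KO3 and 20.3 ± 1.08 CPM in KO7, against 39.7 ± 1.35 CPM in WT6. It averaged 13.5 ± 0.508 CPM with ERG-245, against 15.6 ± 0.843 CPM with PBS (SD, n = 3). Xcr1, a chemokine receptor of cross-presenting dendritic cells, averaged 0.292 CPM with ERG-245, from 4 to 9 counts per library, against 2.69 CPM with PBS. In the same list Ccr7, a homing receptor of mature dendritic cells and of T cells, averaged 15.6 CPM with ERG-245 against 7.17 CPM with PBS, and Clec10a, a lectin, 2.16 CPM with ERG-245 against 0.279 CPM with PBS. The 16 macrophage and monocyte markers, none at 0, summed to 1239 CPM in KO3, 2849 in KO7, 1717 in WT6, 1274 in WT0 ERG-245 and 969 in WT0 PBS, so that KO7 was highest. The 7 markers of plasmacytoid dendritic cells summed to 150.4 CPM in KO3, 181 in KO7, 708 in WT6, 120.3 in WT0 ERG-245 and 161 in WT0 PBS, and thus were highest in WT6, as the class II genes were. In WT6, Ly6d averaged 498 CPM and Ccr9 averaged 122 CPM, whereas Siglech, which defines these cells, averaged 0.145 CPM, with 0 in KO7 and at most 0.243 CPM elsewhere. Klk1 was at 0 in all groups but WT0 PBS. The 13 erythroid markers summed to 11200 CPM in KO3, 58470 in KO7, 12110 in WT6, 49770 in WT0 ERG-245 and 40720 in WT0 PBS, and thus were high in KO7 and both WT0 groups. The 8 plasma cell markers summed to 790.0 CPM in KO3, 530.0 in KO7, 1818 in WT6, 668 in WT0 ERG-245 and 294 in WT0 PBS. The part of these cell types was not tested either.

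The factors that sit on class II promoters had log2 fold changes of -0.77 to 0.03 with ERG-245, -0.47 to 0.31 in KO7 over WT6 and -0.15 to 0.07 in KO3 over WT6. Of 7 listed, the RFX subunits Rfx5, Rfxap and Rfxank, the Y box factors Nfya, Nfyb and Nfyc, and Creb1, 5 fell and none rose with ERG-245. Of all genes tested, 32.8% fell and 33% rose in that comparison. The shares were 36.7% and 32.2% in KO7 against WT6, and 32% and 27.7% in KO3 against WT6. Rfx5, the DNA-binding subunit of RFX, had 33.6, 31.6 and 33.8 CPM with ERG-245, against 56.1, 57.2 and 54.9 CPM with PBS. It fell by 0.77 on the log2 scale (SE 0.048, edgeR adjusted p = 3.97e-24), Nfya by 0.47 and Creb1 by 0.33. In KO7 against WT6, 3 rose and 1 fell, Creb1 by 0.47 on the log2 scale, and Rfx5 averaged 47.0 CPM in KO7 against 45.0 CPM in WT6, which did not pass. In KO3 against WT6, 3 fell by 0.13 to 0.15 and none rose, with Rfx5 at 45.3 CPM in KO3 and 45.0 CPM in WT6.

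Of 14 listed genes known to act upstream of Ciita, 13 passed the filter on low counts in the 15-library fit, and interferon gamma, Ifng, did not, with at most 13 counts in a library. Of all genes tested, 33% rose and 32.8% fell with ERG-245. The shares were 32.2% and 36.7% in KO7 against WT6, and 27.7% and 32% in KO3 against WT6. The list was not split by whether its genes raise or lower Ciita. With ERG-245, 6 rose and 6 fell, led by Pax5, the B lineage factor, which averaged 2.23 CPM with ERG-245 against 9.71 CPM with PBS (log2 -2.12, SE 0.14). In KO7 against WT6, 2 rose and 10 fell. Among those that fell were Pax5, at 0.874 CPM in KO7 against 5.08 CPM in WT6 (log2 -2.54), and Irf4, at 50.6 CPM in KO7 against 80.1 CPM in WT6 (log2 -0.67). In KO3 against WT6, 10 fell and 2 rose. Ifngr1, the interferon gamma receptor chain, averaged 119.5 CPM in KO3 and 191 CPM in KO7, against 266 CPM in WT6, and 112 CPM with ERG-245, against 79.9 CPM with PBS. Irf1, a target and mediator of interferon gamma, rose by 0.34 on the log2 scale in KO3 relative to WT6. It averaged 114.8 CPM over the KO3 and KO7 libraries, against 89.55 CPM over those of WT6 and WT0 PBS. These did not overlap, beside 6.3% of all genes, but Irf1 did not pass with the leukemia as the replicate. With ERG-245 Irf1 fell by 0.26 on the log2 scale, to 73.6 CPM against 88.15 CPM with PBS.

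The 8 listed genes of endosomal processing and class II turnover went another way than the class II genes in 2 of these 3 comparisons. Of all genes tested, 33% rose with ERG-245 and 32.2% rose in KO7 against WT6, while 32% fell in KO3 against WT6. With ERG-245 all 8 rose relative to PBS, led by Ctss, cathepsin S, which trims the invariant chain and had 119, 124 and 124 CPM with ERG-245, against 64.7, 65.3 and 65.7 CPM with PBS. Ctss rose by 0.91 on the log2 scale (SE 0.033), Ctsl by 0.78, Ifi30, the lysosomal thiol reductase, by 0.56, and Lgmn, legumain, by 0.55. In KO7 against WT6, 7 rose and Ctss, at 206 CPM in KO7 against 209 CPM in WT6, did not pass, whereas in KO3 against WT6 all 8 fell, by 0.098 to 0.62. Marchf8, a ubiquitin ligase that lowers surface class II in other cells, averaged 53.0 CPM in KO3 and 209 CPM in KO7, against 59.0 CPM in WT6, and 254 CPM with ERG-245, against 196 CPM with PBS. It was thus high in KO7 and both WT0 groups, as the erythroid marker sum was. The part of erythroid cells in the Marchf8 level was not tested.

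Of 7 listed costimulatory and related surface genes of antigen presenting cells, 2 rose and 3 fell with ERG-245. Of all genes tested, 33% rose and 32.8% fell in that comparison. The shares were 32.2% and 36.7% in KO7 against WT6, and 27.7% and 32% in KO3 against WT6. Cd83, a marker of mature dendritic and activated B cells, averaged 6.49 CPM with ERG-245 against 17.1 CPM with PBS (log2 -1.39, SE 0.093), whereas Cd86 rose by 0.44 on the log2 scale. In KO7 against WT6, Cd86 rose by 0.85 and 4 fell, among them Cd40 at 1.93 CPM in KO7 against 6.62 CPM in WT6 and Pdcd1lg2 at 5.64 CPM in KO7 against 14.7 CPM in WT6. In KO3 against WT6 all 7 fell, Cd83 by 1.00 and Cd40 by 0.92 on the log2 scale.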

How the data were processed

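RNA-seq of 15 spleen leukemia libraries was analysed from the authors' deposited table of raw fragment counts per gene. Per the file headers, the authors counted with featureCounts 2.0.1 on paired fragments over RefSeq exons of GRCm38.p6, with strand setting 2 and a minimum overlap of 25 bases. The labels describe a TruSeq stranded kit, and the tools in the submitters' processing notes are DESeq2, STAR, Subread and Trim Galore, with build mm10. How reads from near-identical genes were placed is not given in the sources used here. The deposited table also gives merged exon lengths in bases, used for FPKM. Genes on 9 broken lines (3 genes) were left out, and 39743 of 39827 gene IDs had a symbol.

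Counts were tested in R 4.3.3 with edgeR 4.0.16 (filterByExpr, TMM, 1 quasi-likelihood fit to 15 libraries, 15948 genes, 10 residual degrees of freedom). Fold changes are log2, first group over second, and intervals are 95%. CPM and FPKM use the TMM-scaled total. On simulated data for KO7 against WT6, 94% of genes changed by 2 on the log2 scale were recovered. That share says nothing about smaller changes, which many of the calls above are. Libraries of a group differed by a biological coefficient of variation of 2.18%, leukemias of a genotype by 41.9%. Replicate numbers did not pair libraries. The named genes are all 9 members, 3 related class II genes, up to 4 genes per list and comparison by smallest p, markers of other cells, and the 8 genes with the most similar group profile (prior count 2). Members and lists were chosen with earlier results of these data known. Genes named from the lists beyond that rule were chosen after their values were seen. Alternatives tried were other scalings, filters, DESeq2 1.42.0, a replicate block, fits to 2 groups and each library left out. The fit per leukemia uses counts summed over 3 libraries.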

Additional observations from a re-analysis of the deposited data

How the results depend on the processing

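The counts of members higher and lower in the 7 comparisons of groups stayed within 1.5 times of those reported under each alternative run (other scalings, filters, DESeq2, a fit to the groups compared, a replicate block, each library left out), with 1 exception. In KO3 against KO7 the 1 lower member, H2-DMb1, was lost on total counts (0 lower), and leaving out each library gave 0 to 1 lower, with 0 without KO7 replicate 2 or KO3 replicate 2. H2-DMb1 with ERG-245 relative to PBS also missed the threshold with DESeq2 (adjusted p = 0.09), without immunoglobulin, hemoglobin and erythroid genes (edgeR adjusted p = 0.0566) and with the replicate block (0.0558). Total-count scaling moved the median log2 fold change of all genes by at most 0.0694 in size.

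H2-Oa did not pass in 4 comparisons, and its sign there turned with the setting. With ERG-245 relative to PBS its log2 fold change was -0.0667 on total counts, -0.0249 with no filter, -0.000838 with at least 1 CPM in 3 libraries and -0.000686 with the replicate block, and leaving out each library gave -0.0511 to 0.0444. In KO3 over KO7 it was 0.0363 on total counts, and -0.0559 to 0.0166 with each library left out. In KO7 over WT6 it was 0.0122 in a fit to those 2 groups, and -0.0537 to 0.0335 with each library left out. In KO3 over WT6 leaving out each library gave -0.0624 to 0.00533.

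In the fit per leukemia, leaving out each leukemia gave log2 differences of -1.29 to 0.32 for H2-Aa, -1.14 to 0.54 for H2-Ab1, -1.12 to 0.44 for H2-Eb1, -1.20 to 0.27 for Cd74, -0.33 to 0.55 for H2-DMa and -0.60 to 0.62 for H2-DMb1. There the lone leukemia of a genotype is assumed to vary like the other genotype's.

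The order of members per length kept only some ranks when CPM was not divided by length: 4 of 9 members in KO3, 5 in KO7, 2 in WT6, 5 in WT0 ERG-245 and 5 in WT0 PBS kept their rank. With the longest coding transcript as length, an alternative chosen after seeing the data, 5 did in KO7. The ratios to 13 B cell markers were also chosen after seeing the data, and with them the ratio of the 4 abundant genes turned from lower to higher between ERG-245 and PBS (5.03 against 3.71).

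Replicate numbers are shared by all groups, but the deviations of same-numbered libraries did not correlate (r of -0.152 to 0.0971 over 21 pairs, 0 over 0.1, own number best in 3), so the block is given here only. Depth limits Ciita and H2-Ob most, with as few as 55 counts in a library.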
